A study of Nicotiana benthamiana with 9 samples.

Results

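Sequences of middle length in the assembly of Nicotiana benthamiana, from 2000 to under 20000 nt long, were examined for their response to heat and to wounding, with the rows named as contigs set against those named as scaffolds. The members were the rows of this length whose counts summed to at least 90 over the 9 libraries. They numbered 719 of the 56094 rows of the deposited table, 474 contigs (names beginning Niben101Ctg) and 245 scaffolds (names beginning Niben101Scf). The length class held 2980 contigs and 2475 scaffolds, of which 2133 and 1774 had no count in any library. Members therefore made up 15.9% of the contigs and 9.9% of the scaffolds of this length, and they held 99.5% of the counts that fell on the class.

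Leaves of 5-week-old plants grown in soil were sampled in 3 groups of 3 libraries, which the series calls biological replicates. Mock plants, the named control, stayed at 23 °C for 1 h with no wound. Heat-treated plants stayed at 37 °C for 1 h, and wounded plants had their leaves cut with scissors, followed by 1 h at 23 °C. No transgene or mutation is named for any group. The labels do not say whether a library came from 1 plant or from several, so p-values measure the spread between libraries, which may be partly technical.

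A contig is a stretch of assembled sequence without gaps, and a scaffold is commonly built by joining contigs across gaps of estimated size. In a plant genome, short sequences that were not joined into longer scaffolds are often repeats, recent duplicates or pieces of organelle genomes, which assemblers separate poorly. Heat makes plant cells induce chaperone genes within minutes and lowers the transcripts of many growth and photosynthesis genes, while a cut leaf starts jasmonate signalling and defence. Here each deposited value belongs to a whole assembly sequence. The table pairs no sequence with a gene, so the members are described by name, length and count, with no gene or function, and the leaf label could not be checked against marker genes. No nucleotide sequence is shown, because neither sequences nor an annotation were used here.

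Total counts ran from 13846165 to 17480792 per library. No pair of libraries within a group agreed within sampling noise. The variance between libraries was 12.1 to 18.4 times that of counting alone for 5 of the 9 pairs within a group, and 30.6 to 45.9 times for the 4 pairs that held mock replicate 2 or heat replicate 2. Where leaving them out changes a call against mock described below, the value without them is given. A count can fall because a cell type is rarer or because its cells hold less of an RNA, and these cannot be told apart in whole leaves.

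Contigs made up most of the reads of this length. In mock libraries the 474 contigs held 1.76% ± 0.0916 (SD, n = 3) of all counts and the 245 scaffolds held 0.539% ± 0.0308. The contigs were shorter, with a median of 3410 nt (quartiles 2530 and 4793) against 10330 nt (5842 and 15675). Their median summed counts were alike, 440.5 for contigs and 470 for scaffolds. Per length, the deposited RPKM in mock libraries had a median of 0.831 over contigs and 0.429 over scaffolds. RPKM here divides by the whole sequence, transcribed or not, so it is lower where a sequence has more untranscribed bases.

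The read share of the class was concentrated in few rows. In mock libraries 1 contig held 20.7% of the class's reads, the 5 most abundant rows held 58.4% and the 50 most abundant held 83.9%. Of the 5 most abundant rows, 4 were contigs. At the other end, 379 contigs and 180 scaffolds lay under 10 CPM in mock libraries, where CPM divides a count by the library size after TMM scaling, per 1000000.

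After heat the read share of the contigs was lower in every library than in any mock library. It was 1.82%, 1.66% and 1.81% in mock replicates 1 to 3 and 1.1%, 1.16% and 1.04% in heat replicates 1 to 3. The mean dropped by 0.662 percentage points, to 0.625 times its mock value. Wounded libraries held 1.73%, 1.7% and 1.71%, inside the mock range.

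The share of the scaffolds was also lower after heat, by a smaller part of its level. Mock libraries held 0.505%, 0.565% and 0.548% and heat libraries held 0.428%, 0.466% and 0.442%, with no overlap. Its mean dropped by 0.0939 percentage points, to 0.826 times its mock value. After wounding the scaffolds held 0.59%, 0.591% and 0.563%, a range that overlaps mock. Without Niben101Scf34696, described below, the scaffolds' share after heat dropped by 0.0215 points, so it rested largely on that scaffold.

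The ratio of contig to scaffold share was 3.61, 2.94 and 3.3 in mock libraries and 2.58, 2.49 and 2.36 after heat, again with no overlap. Without the contig Niben101Ctg16374 the ratio was 2.57, 2.2 and 2.42 in mock and 2.41, 2.2 and 2.22 after heat, and the groups overlapped. The lower ratio of contigs to scaffolds after heat thus rested on 1 row. The shares received no test, because the members were chosen with results of these data known, and 3 libraries against 3 could not give an exact permutation p below 0.1.

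**Figure D1:**
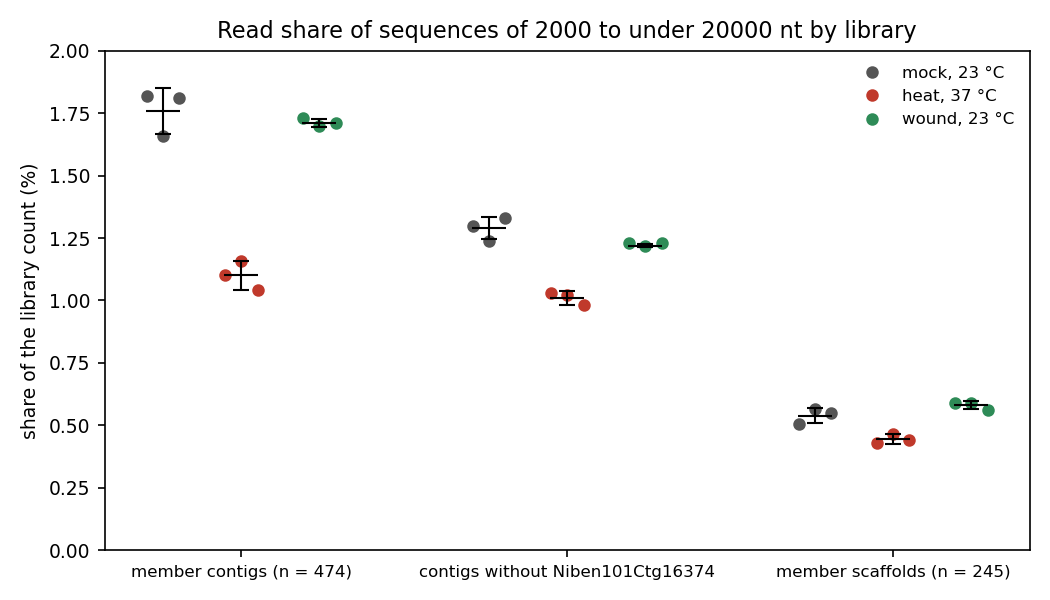
Share of each library's count (%) held by the 474 member contigs, by the contigs without Niben101Ctg16374 and by the 245 member scaffolds, with 1 point per library and the group mean ± SD (n = 3) in black. Heat libraries lie below mock in all 3 sets, from a mean of 1.76% to 1.1% for contigs, from 1.29% to 1.01% without that contig and from 0.539% to 0.445% for scaffolds.

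The fall of the class rested on few rows. The members lost 0.756 percentage points of the library count in all, as falls of 0.913 points in 460 rows less rises of 0.157 points in 258 rows, and contigs accounted for 87.6% of the net fall. The 5 rows that fell most made up 92.3% of the net fall and the 10 that fell most made up 99.3%. The net subtracts the rises, and of the falls alone these rows made up 76.3% and 82.1%. The 5 rows that fell most were also the 5 most abundant in mock libraries, where they held 58.4% of the class's reads. A ranking by percentage points favours abundant rows. The 10 rows are described in order of their fall. Their ranking uses the shares in mock and heat libraries, so their place in it is a description.

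Niben101Ctg16374 (positions 1 to 10737) carried 51.1% of the net fall. It had 82358, 62068 and 78734 counts in mock replicates 1 to 3, 10240, 19189 and 10453 after heat and 77819, 69512 and 73936 after wounding. Every heat library lay far below every mock and wounded library, and heat replicate 2 was the highest of the heat libraries. The level was 4579 ± 736 CPM (SD, n = 3) in mock, 948.9 ± 452.4 CPM after heat and 4870 ± 171 CPM after wounding. It fell after heat with a log2 change of -2.27 ± 0.266, or 4.83-fold (SE, edgeR adjusted p = 3.4e-05). After wounding the log2 fold change was 0.089 (edgeR adjusted p = 0.873). Heat and wounding differed directly, at -2.36 ± 0.267 (edgeR adjusted p = 2.19e-05). Without mock replicate 2 and heat replicate 2 the fall after heat was -2.84 (edgeR adjusted p = 1.01e-08). Among all 56094 rows this contig had the 4th largest fall of share after heat.

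Next came 4 rows with smaller relative changes at high levels. Niben101Ctg16210 (positions 1 to 8119) carried 13.2% of the net fall. Its counts were 45994, 38716 and 42820 in mock libraries, 24205, 23904 and 30364 after heat and 36053, 38213 and 38450 after wounding. The heat libraries lay together, at 1810 ± 39.7 CPM (SD, n = 3), all below the mock libraries at 2618 ± 304.2 CPM. Heat changed it by -0.53 ± 0.103 on the log2 scale (SE, edgeR adjusted p = 0.00121).

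Niben101Ctg14049 (positions 1 to 2350) carried 11.4%. Its counts were 44538, 37026 and 46927 in mock, 24559, 30074 and 30537 after heat and 36284, 31724 and 37294 after wounding. It was the densest of the 10 rows per length, at 1167 ± 90.4 RPKM (SD, n = 3) in mock and 802.2 ± 92.2 RPKM after heat. On the TMM scale heat replicate 2, at 2299 CPM, slightly exceeded mock replicate 2, at 2288 CPM, so the groups overlapped there. Its log2 change after heat came to -0.41 ± 0.126 (SE, edgeR adjusted p = 0.0174). The call was lost without mock replicate 1 (-0.34, adjusted p = 0.063), mock replicate 3 (-0.38, 0.0597), heat replicate 1 (-0.33, 0.0807) or heat replicate 3 (-0.36, 0.0773), and without mock replicate 2 and heat replicate 2 it was -0.62 (edgeR adjusted p = 2.54e-04).

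The scaffold Niben101Scf34696 (positions 1 to 15948) carried 9.59% of the class's net fall and was the largest contributor among scaffolds. It had 27211, 22176 and 30627 counts in mock, 11772, 15461 and 17415 after heat and 34500, 28000 and 32414 after wounding. Heat libraries lay below and wounded libraries above all mock libraries in CPM, at 1032 ± 163.1, 2088 ± 175.4 and 1637 ± 231.3 CPM (SD, n = 3) for heat, wounding and mock. The fall after heat was -0.67 ± 0.14 on the log2 scale (SE, edgeR adjusted p = 0.00205). The log2 difference after wounding was 0.35 (edgeR adjusted p = 0.121), while heat against wounding gave -1.02 ± 0.141 (edgeR adjusted p = 1.05e-04).

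Niben101Ctg13927 (positions 1 to 2270) carried 6.95%. Its counts were 23977, 18535 and 27857 in mock, 13876, 14122 and 15998 after heat and 19122, 16382 and 19979 after wounding. It fell after heat, changing by -0.5 ± 0.131 on the log2 scale (SE, edgeR adjusted p = 0.00798), with heat libraries below all mock libraries in CPM. The wounded libraries, at 1221 ± 104.3 CPM (SD, n = 3), lay between heat at 1020 ± 55.9 and mock at 1439 ± 256.9 CPM, and overlapped mock (edgeR adjusted p = 0.265).

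The remaining 5 of the 10 rows each carried at most 2.28% of the net fall, and 3 of them were called lower after heat. Niben101Scf24421 (positions 1 to 5886) had 314.6 ± 38.2 CPM in mock and 162.9 ± 23.7 CPM after heat (SD, n = 3), a log2 change of -0.95 ± 0.128 (SE, edgeR adjusted p = 9.66e-05), and held 393.5 ± 38.9 CPM after wounding. Niben101Ctg14726 (positions 1 to 2949) dropped from 112 ± 8.2 to 46.9 ± 7.64 CPM, or -1.26 ± 0.126 (edgeR adjusted p = 1.06e-05). Niben101Ctg13733 (positions 1 to 2139) fell 4.1-fold, from 62.3 ± 6.28 to 15.2 ± 2.54 CPM (edgeR adjusted p = 9.65e-07), and each of these had all heat libraries below all mock libraries.

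The other 2 entered the ranking by level and were not called after heat. Niben101Ctg13946 (positions 1 to 2284) had 996.1 ± 100 CPM in mock and 931 ± 77.6 CPM after heat (SD, n = 3, edgeR adjusted p = 0.506). Niben101Scf32929 (positions 1 to 6194) had 380.5 ± 75.6 and 335.2 ± 40.1 CPM (edgeR adjusted p = 0.312). Shares use the whole library count, while CPM uses the TMM-scaled size. Neither row was called after heat in any of 17 alternative fits, library totals alone among them. The TMM factors were 0.9954 to 1.092 in mock and 0.9285 to 0.9904 in heat libraries.

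**Figure D2:**
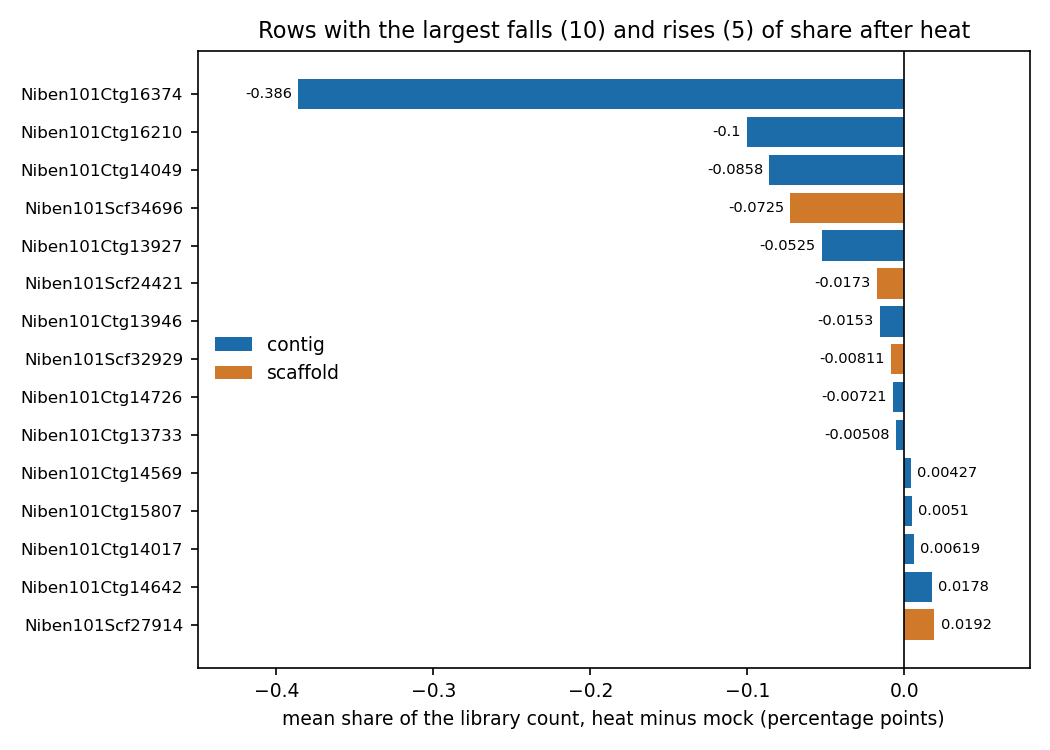
Change of the mean share of the library count, heat minus mock, in percentage points, for the 10 members with the largest falls and the 5 with the largest rises; blue bars are contigs and orange bars are scaffolds. Niben101Ctg16374, at -0.386 points, is far beyond the next row, at -0.1 points, and the largest rise is 0.0192 points.

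**Figure D3:**
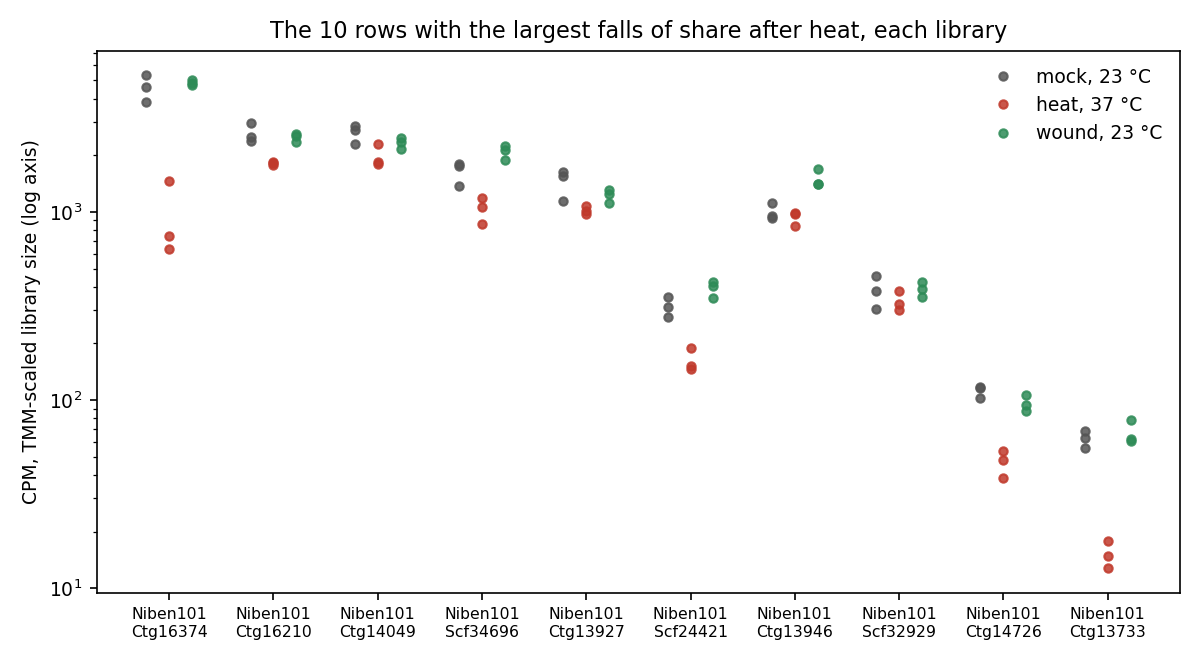
CPM on a log axis in each of the 9 libraries for the 10 rows with the largest falls of share after heat, with 1 point per library and colours for mock, heat and wounding. The 3 heat libraries of Niben101Ctg16374 lie between 633 and 1467 CPM and its mock and wounded libraries between 3836 and 5308 CPM.

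With the 5 leading rows left out, the remaining 470 contigs held 0.591% ± 0.026 of the count in mock and 0.554% ± 0.0208 after heat (SD, n = 3). The remaining 244 scaffolds held 0.369% ± 0.0429 and 0.347% ± 0.00758. In both cases the heat and mock libraries overlapped, and the relative drops were 6.28% and 5.82%. This set was trimmed after its values were seen and is only a description.

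Rises of share after heat were small. The largest was the scaffold Niben101Scf27914 (positions 1 to 9509), with 523, 582 and 562 counts in mock, 3004, 3597 and 3687 after heat and 938, 832 and 708 after wounding. All heat libraries lay above all others, and heat raised it by 2.81 ± 0.126 on the log2 scale (SE, edgeR adjusted p = 1.37e-08). It also rose after wounding, at 0.68 ± 0.122 (edgeR adjusted p = 0.00354), and heat exceeded wounding by 2.13 ± 0.123 (edgeR adjusted p = 1.13e-07).

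Niben101Ctg14642 (positions 1 to 2851) moved in opposite directions after the treatments. It had 11596, 11389 and 14199 counts in mock, 14432, 13796 and 15630 after heat and 9022, 7641 and 7975 after wounding. The CPM of the 3 groups did not overlap, at 759.9 ± 63.1 in mock, 1018 ± 61.9 after heat and 542.1 ± 37.2 after wounding (SD, n = 3). The log2 fold change was 0.42 ± 0.0974 after heat (edgeR adjusted p = 0.00365) and -0.49 ± 0.0976 after wounding (edgeR adjusted p = 0.00656). With upper-quartile factors the value after heat was 0.24 and no longer past the threshold (edgeR adjusted p = 0.0756).

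The other 3 of the 5 largest rises were contigs whose libraries varied more. Niben101Ctg14017 (positions 1 to 2327) went from 329, 647 and 371 counts in mock to 1533, 834 and 1805 after heat (log2 fold change 1.78 ± 0.261, edgeR adjusted p = 1.78e-04). Niben101Ctg14569 (positions 1 to 2769) went from 809, 1081 and 872 to 1512, 995 and 2210 (0.92 ± 0.179, edgeR adjusted p = 0.00129). Niben101Ctg15807 (positions 1 to 5256) had 217, 638 and 343 counts in mock and 1204, 470 and 1935 after heat, where the groups overlapped. In all 3, mock replicate 2 was the highest mock library and heat replicate 2 the lowest heat library. Of the 115 members called higher after heat, mock replicate 2 was the highest mock library in 46 and the lowest in 25. Heat replicate 2 was the lowest heat library in 45 of them and the highest in 28. Of the 182 called lower, mock replicate 2 was the lowest in 85 and the highest in 59. Heat replicate 2 was the highest in 86 of those and the lowest in 44. Over all members ranked this way, called or not, mock replicate 2 was the highest in 39.1% of contigs and 38.3% of scaffolds. It was the lowest in 33.3% and 33.8%. Heat replicate 2 was the highest in 37.5% and 39.2% of them and the lowest in 34.3% and 29%. The log2 fold change of Niben101Ctg15807 was 1.72 ± 0.418 (edgeR adjusted p = 0.00505), and 2.59 without mock replicate 2 and heat replicate 2 (edgeR adjusted p = 4.02e-06). Without them Niben101Ctg14017 came to 2.37 (edgeR adjusted p = 7.74e-08). After wounding Niben101Ctg15807 had a log2 change of 0.49 (edgeR adjusted p = 0.491), and 0.99 without those libraries (edgeR adjusted p = 0.00868).

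Row by row, contigs were lower after heat more often than scaffolds of the same class. Among the 472 tested contigs, 73 (15.5%) were called higher and 134 (28.4%) lower, and among the 244 tested scaffolds 42 (17.2%) were higher and 48 (19.7%) lower. Over all 9645 tested rows, 27.4% were called higher and 22.8% lower. Contigs thus lay above the background for falls and below it for rises, while scaffolds lay below it in both directions. A called row has an edgeR adjusted p under 0.05 over all tested rows. The difference between contigs and scaffolds was not tested, since rows share libraries and are not replicates.

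Changes of at least 2-fold showed a similar split. After heat, 52 contigs (11%) rose and 94 (19.9%) fell by that much, and 34 scaffolds (13.9%) rose and 36 (14.8%) fell. Over all tested rows 12.8% rose and 8.58% fell at least 2-fold, so the falls of both kinds were above the background and the rises near it. Members were shallower than the table as a whole, with a median of 3 CPM in mock against 24.1 CPM. Their fitted changes were less precise, with a median SE of 0.348 against 0.163 on the log2 scale, and the part of depth in these shares was not tested.

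The median log2 fold change after heat was -0.34 over contigs (quartiles -0.97 and 0.37), -0.086 over scaffolds (-0.72 and 0.44) and 0.01 over all tested rows (-0.43 and 0.52). Of the tested contigs 61.2% and of the scaffolds 54.9% had a fitted value below 0, against 49.4% of all rows. Relative to the median of all rows, the contig median was -0.35 and the scaffold median -0.10 under TMM, RLE and upper-quartile factors and with library totals alone. The last 2 of these scalings shifted the median of all rows to -0.17 and -0.12. The split of calls moved with them for scaffolds and contigs: upper-quartile factors gave 58 higher and 159 lower contigs (26.7% of calls higher, against 35.3% with TMM) and 39 higher and 66 lower scaffolds (37.1% against 46.7%). Over all tested rows that percentage moved alike, from 54.6% to 38.9%. The scaffold median was 0.0079 among members with at least 500 summed counts, so its direction was not stable. The medians were the same when rows with no count in a group were set to their bounds.

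**Figure D4:**
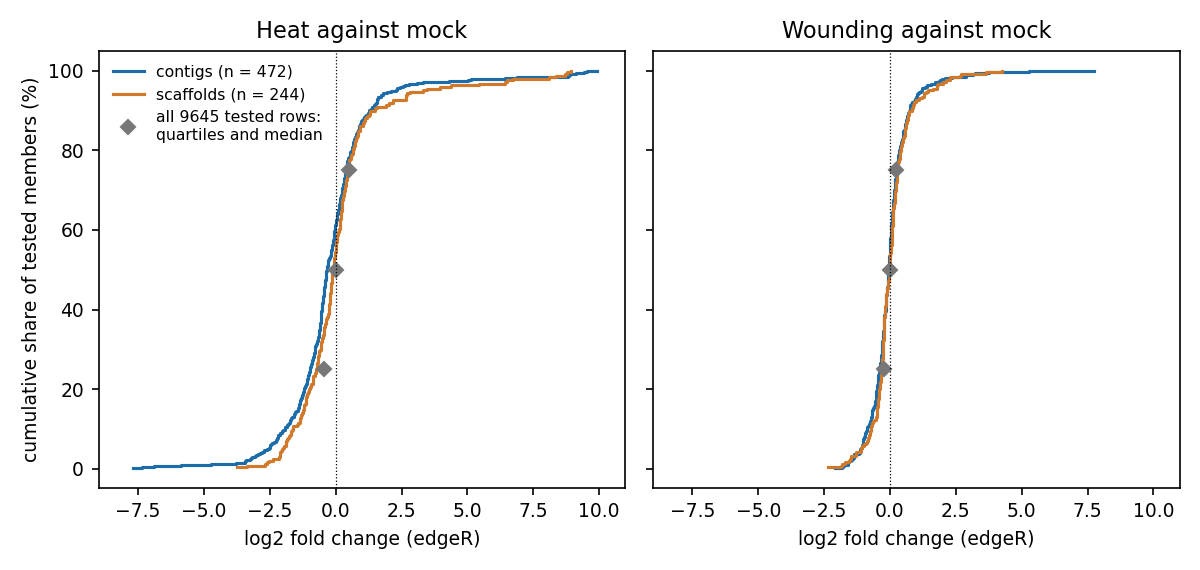
Cumulative share of tested members (%) by fitted log2 fold change after heat (left) and after wounding (right), with 472 contigs in blue, 244 scaffolds in orange and the quartiles and median of all 9645 tested rows as grey diamonds. After heat the contig curve lies left of the scaffold curve around the median (-0.34 against -0.086), and after wounding the curves nearly coincide (-0.056 and -0.025).

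Contigs and scaffolds also differed in length, so they were set side by side within narrower lengths, a choice made after the values were seen. From 2000 to under 5000 nt, 94 of 360 contigs (26.1%) and 9 of 52 scaffolds (17.3%) were lower after heat. From 5000 to under 10000 nt these were 32 of 90 contigs (35.6%) and 8 of 68 scaffolds (11.8%), the widest gap. From 10000 to under 20000 nt they were 8 of 22 contigs (36.4%) and 31 of 124 scaffolds (25%), on few contigs. Over all tested rows 22.8% were lower and 27.4% higher. Called higher were 15.8%, 15.6% and 9.09% of the contigs and 15.4%, 8.82% and 22.6% of the scaffolds in the 3 ranges. In the shortest range scaffolds were shallower, with a median of 1.67 CPM in mock against 2.85 CPM for contigs. The part of depth in these percentages was not tested. The median log2 fold change of contigs was -0.30, -0.49 and -0.42 in the 3 ranges and that of scaffolds was -0.12, -0.071 and -0.13.

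Members were also grouped by level in mock, which is one arm of the contrast, so a high level there favours falls and a low level favours rises. Where a row had at least 10 CPM in mock, 48 of 95 contigs (50.5%) and 18 of 65 scaffolds (27.7%) were lower after heat, and 14 (14.7%) and 9 (13.8%) were higher. Of all tested rows at this level, 26.2% were lower and 29.5% higher. From 2 to under 10 CPM, 67 of 204 contigs (32.8%) and 22 of 90 scaffolds (24.4%) were lower, against 21.6% of all tested rows. Under 2 CPM rises were more frequent than falls for both kinds, with 33 higher and 19 lower of 173 contigs and 16 higher and 8 lower of 89 scaffolds. Of all tested rows under 2 CPM, 25.5% were higher and 10.2% lower. A row with little RNA in mock could be a member through its heat counts, which also favours rises. With members chosen by mock counts alone, 55 contigs and 30 scaffolds were higher and 140 and 52 lower. That choice uses the mock arm and so favours falls in turn. Beside these counts no share over all rows chosen that way is given.

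**Figure D5:**
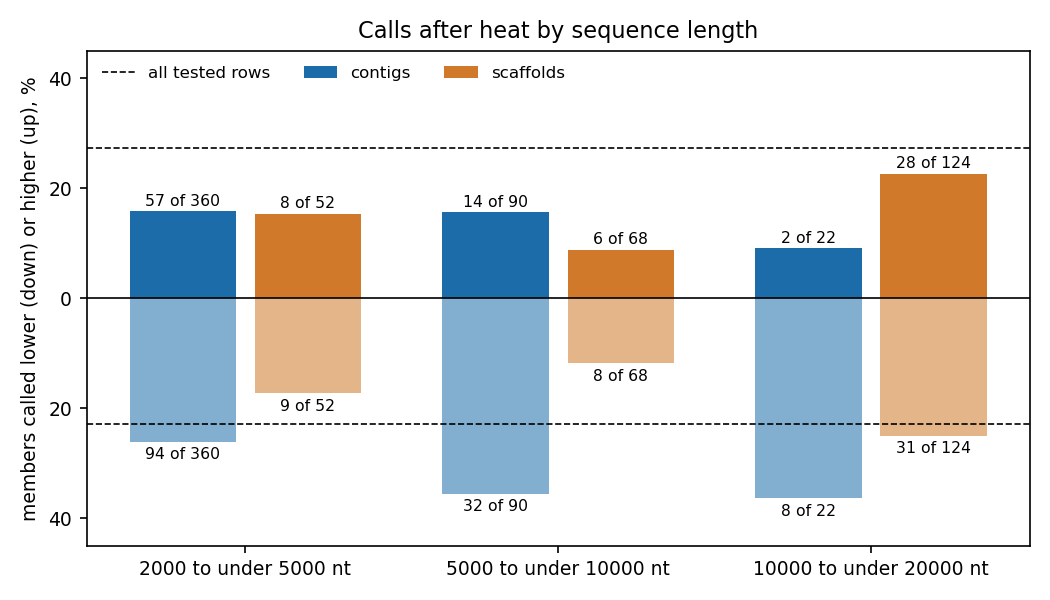
Percent of tested members called higher (upward bars) and lower (downward, paler bars) after heat in 3 ranges of sequence length, contigs in blue and scaffolds in orange, with the number called of the number tested; dashed lines mark all tested rows, 27.4% higher and 22.8% lower. Contigs have the larger share of falls in each range, with the widest gap from 5000 to under 10000 nt (35.6% against 11.8%).

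Outside the class the values were as follows, beside the 27.4% higher and 22.8% lower of all tested rows. Of 865 tested contigs under 2000 nt, 138 (16%) were higher and 127 (14.7%) lower after heat. Of 378 tested scaffolds under 2000 nt, 134 (35.4%) were higher and 54 (14.3%) lower, and of 7630 scaffolds of 20000 nt or more, 2249 (29.5%) were higher and 1823 (23.9%) lower. The differences between these classes were not tested.

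The strongest rises after heat among rows that reached 10 CPM were of sequences nearly silent in mock. The 3 rows described first reached 90 counts only through their heat libraries, so their rise is a description and no p is given. Niben101Ctg14152 (positions 1 to 2428) had 0, 0 and 6 counts in mock, 624, 547 and 728 after heat and 0, 4 and 0 after wounding. The heat libraries lay at 43.8 ± 1.86 CPM (SD, n = 3), and the ratio to mock, which rests on 1 mock library, was 356.9, its 95% counting bounds being 163.7 and 973.8. Niben101Ctg15010 (positions 1 to 3345) had 0, 4 and 0 counts in mock and 124, 122 and 225 after heat, a ratio of 132.8 that rests on 1 mock library and whose 95% counting bounds were 51.5 and 489.4.

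Among scaffolds the leading rises started from a higher level. Niben101Scf13799 (positions 1 to 2428) had 10, 23 and 9 counts in mock, 240, 111 and 246 after heat and 0, 12 and 10 after wounding. All heat libraries lay above the others, 3.97 ± 0.55 higher than mock on the log2 scale (SE), and 4.78 higher without mock replicate 2 and heat replicate 2. Niben101Scf09282 (positions 1 to 11291) went from 43, 36 and 23 counts to 262, 216 and 576 after heat and to 136, 145 and 178 after wounding. It rose after both, by 3.48 ± 0.332 after heat (edgeR adjusted p = 6.88e-06) and by 2.26 ± 0.333 after wounding (edgeR adjusted p = 0.00108).

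Among called rows that reached 10 CPM in mock and did not overlap it, the largest fitted falls after heat were in contigs. Niben101Ctg15550 (positions 1 to 4392) fell 10.8-fold, from 222, 218 and 168 counts in mock to 14, 21 and 14 (log2 fold change -3.45 ± 0.311, edgeR adjusted p = 4.63e-06). Niben101Ctg14126 (positions 1 to 2411) went from 191, 152 and 185 counts to 30, 11 and 9 (-3.2 ± 0.421, edgeR adjusted p = 8.11e-05), and its change was -3.97 without heat replicate 1 (edgeR adjusted p = 4.53e-05). It had 90, 180 and 123 counts after wounding. The leading scaffolds were Niben101Scf24435 (positions 1 to 4021), with 309, 305 and 267 counts in mock and 59, 30 and 32 after heat (-2.68 ± 0.278, edgeR adjusted p = 1.35e-05), and Niben101Scf17710 (positions 1 to 2226), with 202, 184 and 263 against 47, 49 and 66 (-1.83 ± 0.188, edgeR adjusted p = 1.26e-05). In all 4 the heat libraries lay below every mock library.

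A few members were silent in one group. The 7 contigs and 5 scaffolds of the first kind had no mock count but 10 or more in each heat library. They became members through counts in treated libraries, which favours rises, so their numbers and folds are a description. No share of such rows over the whole table is given beside them. The scaffolds were Niben101Scf04766, Niben101Scf18767, Niben101Scf20838, Niben101Scf37253 and Niben101Scf39079, at 2.23 to 3.99 CPM after heat, named after their values were seen. Against a floor of 3 counts per library they were at least 12.1-fold to 21.6-fold higher than mock. The contigs, Niben101Ctg13636, Niben101Ctg13638, Niben101Ctg13773, Niben101Ctg13934, Niben101Ctg14729, Niben101Ctg15248 and Niben101Ctg16051, lay between 3.66 and 7.96 CPM after heat, at least 19.8-fold to 43.1-fold higher. The reverse, at least 10 counts in every mock library and none after heat, was found for 3 contigs and for 0 scaffolds. These were Niben101Ctg13561, Niben101Ctg15687 and Niben101Ctg15862, with 12, 12 and 24, with 18, 30 and 16 and with 12, 41 and 31 mock counts, at least 4.63-fold, 6.27-fold and 8.12-fold lower.

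Wounding left the read share of the class close to mock. It was 2.29% ± 0.0243 after wounding and 2.3% ± 0.071 in mock (SD, n = 3), as rises of 0.208 points and falls of 0.219 points that nearly cancelled. Contigs gave a net change of -0.0527 points and scaffolds of 0.0417 points, both with overlapping libraries. Without Niben101Ctg16374 the contigs held 1.23%, 1.22% and 1.23% after wounding, below the 1.3%, 1.24% and 1.33% of mock, and their ratio to the scaffolds, 2.08, 2.06 and 2.18, lay below mock at 2.57, 2.2 and 2.42. Relative to the TMM-scaled library size the contigs instead gained 0.0148 points, so no direction is given for them.

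The rows that moved the share most after wounding were again abundant ones. Niben101Ctg13946 gained 0.0464 points, with 14658, 15083 and 19050 counts in mock and 26139, 20697 and 21434 after wounding. It rose to 1501 ± 167.1 CPM (SD, n = 3), or by 0.59 ± 0.115 on the log2 scale (SE, edgeR adjusted p = 0.00539), with all wounded libraries above all mock and heat libraries. Niben101Scf34696 gained 0.0387 points, and without it the net change of the scaffolds was 0.00303 points. Niben101Ctg14049 and Niben101Ctg13927 lost 0.042 and 0.0275 points, and neither was called (edgeR adjusted p = 0.379 and 0.265). Without mock replicate 2 and heat replicate 2 both were called lower, at -0.29 and -0.39 on the log2 scale (edgeR adjusted p = 0.0396 and 0.0131), and Niben101Ctg13927 also without mock replicate 2 alone (-0.39, edgeR adjusted p = 0.0306).

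Calls after wounding were few, and made up similar percentages of contigs and of scaffolds. Of the 472 contigs 28 (5.93%) were higher and 18 (3.81%) lower, and of the 244 scaffolds 15 (6.15%) were higher and 11 (4.51%) lower, against 9.86% and 5.02% of all tested rows. Changes of at least 2-fold numbered 18 higher (3.81%) and 10 lower (2.12%) among contigs and 12 higher (4.92%) and 8 lower (3.28%) among scaffolds, where the background was 3.61% and 0.954%. The median log2 fold change was -0.056 over contigs and -0.025 over scaffolds, close to that of all rows. These counts changed when a library was left out. Without mock replicate 3 or without wound replicate 2, 13 contigs were higher. Without mock replicate 3, wound replicate 1 and wound replicate 2, 7, 7 and 10 contigs were lower. For scaffolds 6 were lower without mock replicate 2, mock replicate 3 or any 1 of the wounded libraries. No share over all tested rows in the same fits is given beside these counts, so a change across the whole table cannot be told apart.

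Niben101Ctg15550, which fell after heat, had the largest fitted rise after wounding among called contigs that reached 10 CPM and did not overlap mock. Its 1978, 3346 and 2381 wounded counts were 170.4 ± 50.5 CPM against 12.5 ± 2.4 CPM in mock (SD, n = 3), a 13.6-fold rise (log2 fold change 3.77 ± 0.229, edgeR adjusted p = 2.88e-06). The 3 groups did not overlap. Niben101Ctg14686 (positions 1 to 2888) rose after both treatments, from 43, 51 and 45 counts in mock to 98, 88 and 153 after heat (1.44 ± 0.227, edgeR adjusted p = 3e-04) and 211, 286 and 191 after wounding (2.41 ± 0.224, edgeR adjusted p = 4.77e-05). Wounding exceeded heat in this contig, with a log2 difference of heat against wounding of -0.97 ± 0.207 (edgeR adjusted p = 0.00212).

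By the same limits, the scaffold with the largest fitted rise after wounding was Niben101Scf12039 (positions 1 to 10611). It had 75, 245 and 28 counts in mock, 451, 244 and 746 after heat and 1178, 1634 and 1264 after wounding. Mock libraries were far apart, and all wounded libraries lay above all heat libraries and these above all mock libraries in CPM, heat replicate 2 only just above mock replicate 2. Wounding raised it by 3.65 ± 0.562 on the log2 scale (SE, edgeR adjusted p = 0.00135), and 4.8 without mock replicate 2 (edgeR adjusted p = 1.33e-04). After heat it was 2.17 ± 0.549 (edgeR adjusted p = 0.0063), 3.34 without mock replicate 2 (edgeR adjusted p = 1.47e-04) and 3.62 without mock replicate 2 and heat replicate 2 (edgeR adjusted p = 9.14e-06). The second was Niben101Scf09282, described above. A single contig, Niben101Ctg16385 (positions 1 to 10934), was without mock counts and reached 20, 38 and 20 counts in the wounded libraries, at least 9.36-fold higher. It became a member through treated libraries alone, so this rise is a description.

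Among rows that fell after wounding, 2 contigs and 2 scaffolds met the naming rule first. Niben101Ctg14751 (positions 1 to 2971) had 160, 264 and 288 counts in mock and 77, 85 and 90 after wounding (-1.38 ± 0.211, edgeR adjusted p = 0.00128). It also fell after heat, at -0.63 ± 0.204 (edgeR adjusted p = 0.0223), a call lost without mock replicate 2 (-0.54, adjusted p = 0.0725), mock replicate 3 (-0.51, 0.093) or heat replicate 3 (-0.54, 0.0802), and without mock replicate 2 and heat replicate 2 together (-0.53, 0.104). Niben101Scf13371 (positions 1 to 11097) went from 353, 451 and 353 counts in mock to 132, 123 and 133 after wounding (-1.47 ± 0.314, edgeR adjusted p = 0.0092) and to 952, 439 and 1631 after heat (1.51 ± 0.293, edgeR adjusted p = 0.00124). In this scaffold the 3 groups did not overlap.

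The calls of the other 2 were lost when any 1 of several libraries was left out, mock replicate 2 among them. Niben101Ctg15836 (positions 1 to 5349) had 226, 1135 and 409 mock counts and 112, 133 and 139 after wounding (-2.1 ± 0.606, edgeR adjusted p = 0.0385). Without mock replicate 2 the value was -1.2 (edgeR adjusted p = 0.16), and the call was also lost with the replicate block (-2.01, adjusted p = 0.0908). Niben101Scf26023 (positions 1 to 18040) had 1195, 2327 and 1391 mock counts and 935, 817 and 764 after wounding (-0.86 ± 0.23, edgeR adjusted p = 0.0271). It was -0.53 without mock replicate 2 (edgeR adjusted p = 0.0635) and -0.84 with the replicate block (edgeR adjusted p = 0.0679). Leaving out wound replicate 1, 2 or 3 also ended both calls (edgeR adjusted p = 0.0646 to 0.135). That of Niben101Ctg15836 was lost as well without mock replicate 3 (0.0528) or heat replicate 1 (0.0553), and both stayed past the threshold without mock replicate 2 and heat replicate 2 together (edgeR adjusted p = 0.00353 and 0.00524). After heat neither was called with all libraries, at 0.92 and 0.054 on the log2 scale (edgeR adjusted p = 0.188 and 0.861), but without those 2 libraries both were called higher, at 2.25 and 0.57 (edgeR adjusted p = 1.05e-05 and 0.00145). Niben101Ctg15836 was called higher after heat also without mock replicate 2 (1.83, edgeR adjusted p = 0.0104) or heat replicate 2 alone (1.34, edgeR adjusted p = 0.0336).

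Heat and wounding were compared directly within the class. Among contigs 83 (17.6%) were higher and 116 (24.6%) lower after heat than after wounding, and among scaffolds 41 (16.8%) were higher and 49 (20.1%) lower. Over all tested rows these were 26.7% and 25.0%, so the contigs' falls were near the background, and the scaffolds' falls and the rises of both kinds below it. The largest direct difference among the rows named here that had counts in both groups was that of Niben101Ctg14152, with a ratio of 497.8 on 4 wounded counts and 95% counting bounds of 194.1 and 1829, a description for the same reason as its rise over mock. Niben101Ctg15550 followed in the other direction, with 147.1-fold less after heat than after wounding (log2 fold change -7.22 ± 0.301, edgeR adjusted p = 6.8e-09).

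The limits of the class and of the count passed through a continuous range. The members with the fewest counts, Niben101Scf19968 and Niben101Scf22168, had 90, and Niben101Scf18288 and Niben101Scf26203 missed with 89. The shortest members were Niben101Ctg13542 and Niben101Scf25644 (2002 and 2004 nt), while Niben101Scf39136 and Niben101Ctg13514 (1999 and 1996 nt) lay just below the limit. The longest were Niben101Scf14268 and Niben101Scf03612 (19896 and 19837 nt), with Niben101Scf14995 and Niben101Ctg16503 (20050 and 20176 nt) just above. Of the members, 716 passed the filter on low counts. The 3 that did not were Niben101Scf19968, with 10, 22 and 46 counts in mock and 4, 0 and 0 after heat, Niben101Ctg15447, with 99, 6 and 50 counts after heat and 6 in all elsewhere, and Niben101Ctg16063, with 6, 49 and 52 counts after wounding and none elsewhere. Of all members 39, 26 of them contigs, had fewer than 30 counts over the mock libraries.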

How the data were processed

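RNA of leaves was sequenced in 9 libraries. The authors deposited counts, RPKM, TPM and columns headed CPM for 56094 assembly sequences, per the file headers. Counts are whole numbers per whole sequence. RPKM divides by sequence length and library total, the deposited TPM sums to 1000000 per library, and the deposited CPM is a scaled signal whose sums differ from that, so it and TPM were not used. Not given in the sources used here are the aligner, the counting tool, strand handling and the treatment of multiple matches. Near-identical copies and overlapping transcripts are therefore uncertain.

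The test was that of edgeR 4.0.16 in R 4.3.3, with filterByExpr on the groups, TMM factors on total library counts and 1 quasi-likelihood model of the 3 groups on all 9 libraries, with Benjamini-Hochberg adjustment over the 9645 tested rows and a threshold of 0.05. The common biological coefficient of variation was 15%. The SE of a log2 fold change was obtained from its size and the square root of F. The test was also tried on simulated counts in which 200 rows were changed. Far more rows were called after heat here, so that trial says little about these data. Counting intervals are exact 95% binomial intervals and, like the floor of 3 counts, cover counting error only. DESeq2 1.42.0 was an alternative.

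The members, the length class and the tests were chosen with earlier results of these data known. Rows were named by a rule written down for this report: the 10 largest falls and 5 largest rises of share after heat, the 2 largest of each after wounding, the 2 most abundant contigs and scaffolds in mock, and, per kind, treatment and direction, the 2 largest fold changes among called rows whose groups did not overlap and that reached 10 CPM. Where groups share mock libraries, values are given side by side. The alternatives tried were other scalings, filters, thresholds, denominators and class limits, the replicate number as a block and each library left out in turn.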

Additional observations from a re-analysis of the deposited data

How the results depend on the processing

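The changes of share after heat and the contig median after heat kept their direction in every alternative. The scaffold median after heat and the contig median after wounding turned positive with a minimum of 500 summed counts. After wounding, the change of share of contigs and of both kinds changed sign in some alternatives. No member called in both fits changed direction under another scaling, filter, tool, block or left-out library. Being called in both fits of largely the same counts makes a change of direction unlikely in advance, so this says little. The alternatives with members chosen by mock counts alone and without mock replicate 2 and heat replicate 2 together were chosen after seeing the data. The numbers of calls are given as contigs higher and lower, then scaffolds higher and lower; after heat they were 73, 134, 42 and 48. A stricter filter, at least 50 counts in every library of 1 group, left 48 contigs higher and 31 scaffolds lower. An adjusted p under 0.01 left 48 and 72 contigs. A minimum of 500 summed counts left 42 and 78 contigs and 26 scaffolds lower, and lengths of 3000 to under 15000 nt left 40, 83, 20 and 17. After wounding, against 28, 18, 15 and 11, no filter gave 44, 31 and, for scaffolds lower, 17, as did DESeq2 for the last. An adjusted p under 0.01 gave 10, 4, 8 and 4, lengths of 3000 to under 15000 nt gave 18, 9, 8 and 5, and the minimum of 500 left 5 scaffolds lower. Between treatments, against 83, 116, 41 and 49, an adjusted p under 0.01 gave 55 and 73 contigs and 28 scaffolds lower, the minimum of 500 gave 49, 65 and, for scaffolds lower, 26, and the narrower lengths gave 48, 73, 20 and 22. Thresholds and narrower classes remove calls by construction, and for the rest the cause was not tested. For these counts and those of calls below, no share over all tested rows in the same fit is given. A change across the whole table therefore cannot be told from one in these members.

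The median log2 fold change of contigs after heat, -0.34, was -0.52 with upper-quartile factors, -0.47 with library totals, -0.27 with the stricter filter or without mock replicate 2 and heat replicate 2, -0.20 with the minimum of 500, -0.31 with the narrower lengths and -0.40 with members chosen by mock counts. That of scaffolds, -0.086, was -0.27, -0.22, 0.0079 with the minimum of 500, -0.0075 with the narrower lengths and -0.16 with members chosen by mock counts, and changed sign. After wounding the contig median, -0.056, was -0.081 with RLE, -0.12 with upper-quartile factors and with library totals, -0.024 with the stricter filter, 0.0089 with the minimum of 500, -0.036 with the narrower lengths and -0.085 with members chosen by mock counts. The scaffold median, -0.025, was -0.091 and -0.087 with upper-quartile factors and library totals.

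The change of share after heat, in percentage points for contigs, scaffolds and both, was -0.662, -0.0939 and -0.756. Against the TMM-scaled size it was -0.536, -0.0482 and -0.584, and with the 100 rows of most counts left out of the denominator it was -1.22, -0.217 and -1.44. Without the row that moved each share most it was -0.276, -0.0215 and -0.369, and with the narrower lengths -0.509, -0.00517 and -0.514. Without mock replicate 2 and heat replicate 2 it was -0.744 for contigs and -0.836 for both. After wounding, against the TMM-scaled size, contigs gave 0.0148 and both gave 0.0784, and scaffolds without Niben101Scf34696 gave 0.00303.

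Without any single library, or without mock replicate 2 and heat replicate 2 together, the calls numbered 57 to 72 contigs higher and 94 to 125 lower after heat and 40 to 48 scaffolds higher and 42 to 48 lower. After wounding they numbered 13 to 36, 7 to 20, 12 to 17 and 6 to 16, and between treatments 70 to 84, 95 to 116, 39 to 48 and 36 to 48. The contig median after heat was -0.33 to -0.26 and the scaffold median -0.14 to -0.07; after wounding they were -0.068 to -0.042 and -0.069 to -0.013. Shares after heat changed by -0.744 to -0.632 for contigs, -0.111 to -0.0812 for scaffolds and -0.836 to -0.724 for both, and after wounding by -0.105 to -0.0229, 0.0245 to 0.0544 and -0.0511 to 0.0164.

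Libraries of the same number shared only a number: 3 of the 9 correlated best with their own number, and same-numbered deviations correlated at -0.189 to 0.159. The replicate block gave 66 higher and 117 lower contigs and 42 higher and 43 lower scaffolds after heat, and 26 higher and 12 lower contigs and 14 higher and 8 lower scaffolds after wounding. Depth limits the class, since 559 of 719 members lay under 10 CPM in mock, and a row without a call may still have changed.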
